A study of Mus musculus with 24 samples.

Results

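The proteasome is the cell's main protease for proteins tagged with ubiquitin. Its 20S core is a barrel of alpha and beta subunits, and the 19S cap unfolds the tagged protein and feeds it into the barrel. Interferon induces the beta subunits Psmb8, Psmb9 and Psmb10, which take the places of the catalytic subunits Psmb5, Psmb6 and Psmb7 and form the immunoproteasome, known for making peptides for antigen presentation. Blood stem cells are known to make protein slowly and to depend on tight control of protein quality. Described here are the 48 genes, of 56748 in the count table, whose names start with Psm, go on with a letter from a to g and end in a number. They encode 8 alpha subunits, 7 constitutive beta subunits, 3 immunoproteasome subunits, 1 thymus-specific beta subunit, 6 ATPases and 11 other subunits of the 19S cap, 3 chaperones of the cap, 4 chaperones of the core, and 5 activators or inhibitors. The names chose them, and no measured value did.

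RNA was sequenced in 24 libraries of stem and progenitor cells sorted from the bone marrow of mice, although the tissue label says blood. Groups were the genotype KO and the genotype WT, each with 3 libraries of haematopoietic stem cells (HSC) and of the multipotent progenitors labelled MPP1, MPP2 and MPP4. Tamoxifen, a drug used to switch on an inducible Cre, was given to all groups, the WT ones included. The labels name no deleted gene, allele, Cre line, strain or age, and do not say whether libraries are separate mice. The spread that p-values rest on is therefore that of these libraries and may be technical.

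Total counts were 2894916 to 3667509 in KO libraries and 2540511 to 3807003 in WT libraries. The series title names P-bodies. Ddx6, a helicase those bodies need and a gene chosen from general knowledge rather than from the labels, had 194 to 308 counts in KO libraries and 154 to 319 in WT libraries, so its RNA level does not check the genotype labels. Marker RNA went against 2 of the population labels in both genotypes. Flt3, the receptor that defines MPP4, was at 480.6 to 624.6 CPM (edgeR's counts scaled to library size by TMM) in KO and 1080 to 1182 CPM in WT libraries labelled MPP2. In libraries labelled MPP4 it was at 75.81 to 91.86 CPM in KO and 54.46 to 81 CPM in WT. Slamf1 (CD150), which defines MPP2, was at 1.61 to 10.86 CPM in KO and 7.014 to 9.361 CPM in WT libraries labelled MPP2, and at 69.79 to 110.1 CPM in KO and 34.76 to 52.95 CPM in WT libraries labelled MPP4. These populations are therefore called MPP2-labelled and MPP4-labelled. Genes for smell receptors, which blood cells do not use, also had counts. Spread evenly along all gene spans, such reads would make up 5.46% ± 0.263 of the counts in KO HSC and 22.0% ± 1.53 in WT HSC (SD, n = 3 each). The estimate was 13.6% and 23.7% in KO and WT MPP1, 9.32% and 11.4% in MPP2-labelled, and 18.0% and 29.8% in MPP4-labelled libraries. For the members, the median share of counts expected from it was 2.23% in KO HSC and 11.2% in WT HSC.

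The promoter stretches of 4 members are shown because their genes carry the immunoproteasome and activator results below and because each holds a match to a searched motif. Each run is the 250 bases before the annotated gene start, 5′ to 3′ on the strand of the gene, from RefSeq (GRCm38.p6). Capitals mark the match. Psme3 (chr11:101315963-101316212, plus strand) and Psmb9 (chr17:34187331-34187580, minus strand) have a CCAAT box, read on the other strand as ATTGG. Psmb8 (chr17:34197945-34198194, plus strand) has the gamma-activated site TTCNNNGAA. Psmb6 (chr11:70525107-70525356, plus strand), which Psmb9 replaces, has the antioxidant response element core TGACNNNGC.
Psme3: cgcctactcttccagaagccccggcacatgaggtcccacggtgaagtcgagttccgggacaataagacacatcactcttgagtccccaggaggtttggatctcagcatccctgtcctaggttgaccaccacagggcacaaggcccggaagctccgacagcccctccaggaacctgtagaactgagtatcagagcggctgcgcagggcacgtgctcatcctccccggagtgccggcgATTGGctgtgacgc
Psmb8: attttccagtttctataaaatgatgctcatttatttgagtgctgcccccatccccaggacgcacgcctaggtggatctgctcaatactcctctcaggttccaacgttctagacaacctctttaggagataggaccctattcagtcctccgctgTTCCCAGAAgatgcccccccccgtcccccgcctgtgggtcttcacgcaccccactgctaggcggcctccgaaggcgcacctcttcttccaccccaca
Psmb9: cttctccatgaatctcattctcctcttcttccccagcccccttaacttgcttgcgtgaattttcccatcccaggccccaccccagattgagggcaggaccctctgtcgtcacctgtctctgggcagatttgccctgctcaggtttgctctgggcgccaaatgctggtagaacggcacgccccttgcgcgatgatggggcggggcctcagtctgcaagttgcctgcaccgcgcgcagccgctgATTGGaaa
Psmb6: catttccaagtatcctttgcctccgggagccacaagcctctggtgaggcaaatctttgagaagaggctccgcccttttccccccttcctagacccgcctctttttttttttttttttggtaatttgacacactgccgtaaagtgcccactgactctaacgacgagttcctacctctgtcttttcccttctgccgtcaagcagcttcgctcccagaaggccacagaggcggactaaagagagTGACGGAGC
Of the 48 members, 40 had an entry in that table. On both strands of the 250 bases before the start, CCAAT was found in 14 of the 40 members and in 33.9% of all 32851 promoters. The core TGACNNNGC, bound by the Nrf1 and Nrf2 family that drives constitutive proteasome genes, was in 5 members (Psmb5, Psmb6, Psmc6, Psmd12 and Psmd9) and in 10.2% of all promoters. The site TTCNNNGAA was in 2 members, Psmb8 and Psmg1, and in 7.02% of all promoters. The interferon element core GAAA, any 2 bases, GAAA was in 3 members, Psmb3, Psmd4 and Psmd9, and in 2.98% of all promoters. A match of this kind is a description of letters and not of a bound site.

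Members spanned a wide range of RNA levels. Per kb of exon and averaged over the 8 groups, Psmb2, a non-catalytic beta subunit, was highest at 120 CPM per kb. It was followed by Psme3, the nuclear activator PA28 gamma, at 68.1 CPM per kb, and Psmd14, the deubiquitinase of the cap, at 37.0 CPM per kb. Among the tested members, Psmb8 at 1.53 CPM per kb and the thymus-specific Psmb11 at 0.417 CPM per kb were the lowest. Psmb10 had 0 counts in all 24 libraries, and the core chaperone Psmg3 had 12 counts over all of them, at most 5 in a library. Both failed the filter on low counts, which left 46 members tested. Psmb5, whose product is the chymotrypsin-like catalytic subunit of every standard proteasome, had only 1 to 26 counts in a library, fewer than its substitute Psmb8 in some libraries. Whether the counting lost reads of Psmb5 or Psmb10 was not tested. Rows named as close copies of members, such as Psme2b and Psma5-ps, had 0 to 12 counts in a library, and reads that match a copy as well may be missing from the gene. Psma8, the alpha subunit of the testis, had 19 to 100 counts in a library, of which background would give 10.8% in KO HSC and 35.2% in WT HSC.

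Relative to total counts, proteasome RNA was higher in KO HSC than in WT HSC, by a margin that depended on the scaling. Summed over the members, the level was 2233 ± 54.1 CPM in KO HSC and 1330 ± 34.8 CPM in WT HSC (SD, n = 3 each). Without TMM scaling, members made up 0.191% ± 0.00455 of the counts in KO HSC and 0.143% ± 0.0050 in WT HSC. Of the 46 tested members, 21 rose and 0 fell in KO HSC (edgeR quasi-likelihood test, adjusted p below 0.05), where 18.3% of all genes tested were called higher and 24.8% lower. The groups did not overlap, with KO higher, for 26 members, against 23.1% of all genes. The median log2 fold change (KO over WT) was 0.65 over the members and -0.31 over all genes. Set against genes of like level the gap was smaller: among genes averaging 20 CPM or more, 43.3% of all genes and 17 of 32 members (53.1%) were called higher, and the medians were 0.44 and 0.62. Medians among members and other genes of like level are drawn in the plot of fold change ranges.

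**Figure D1:**
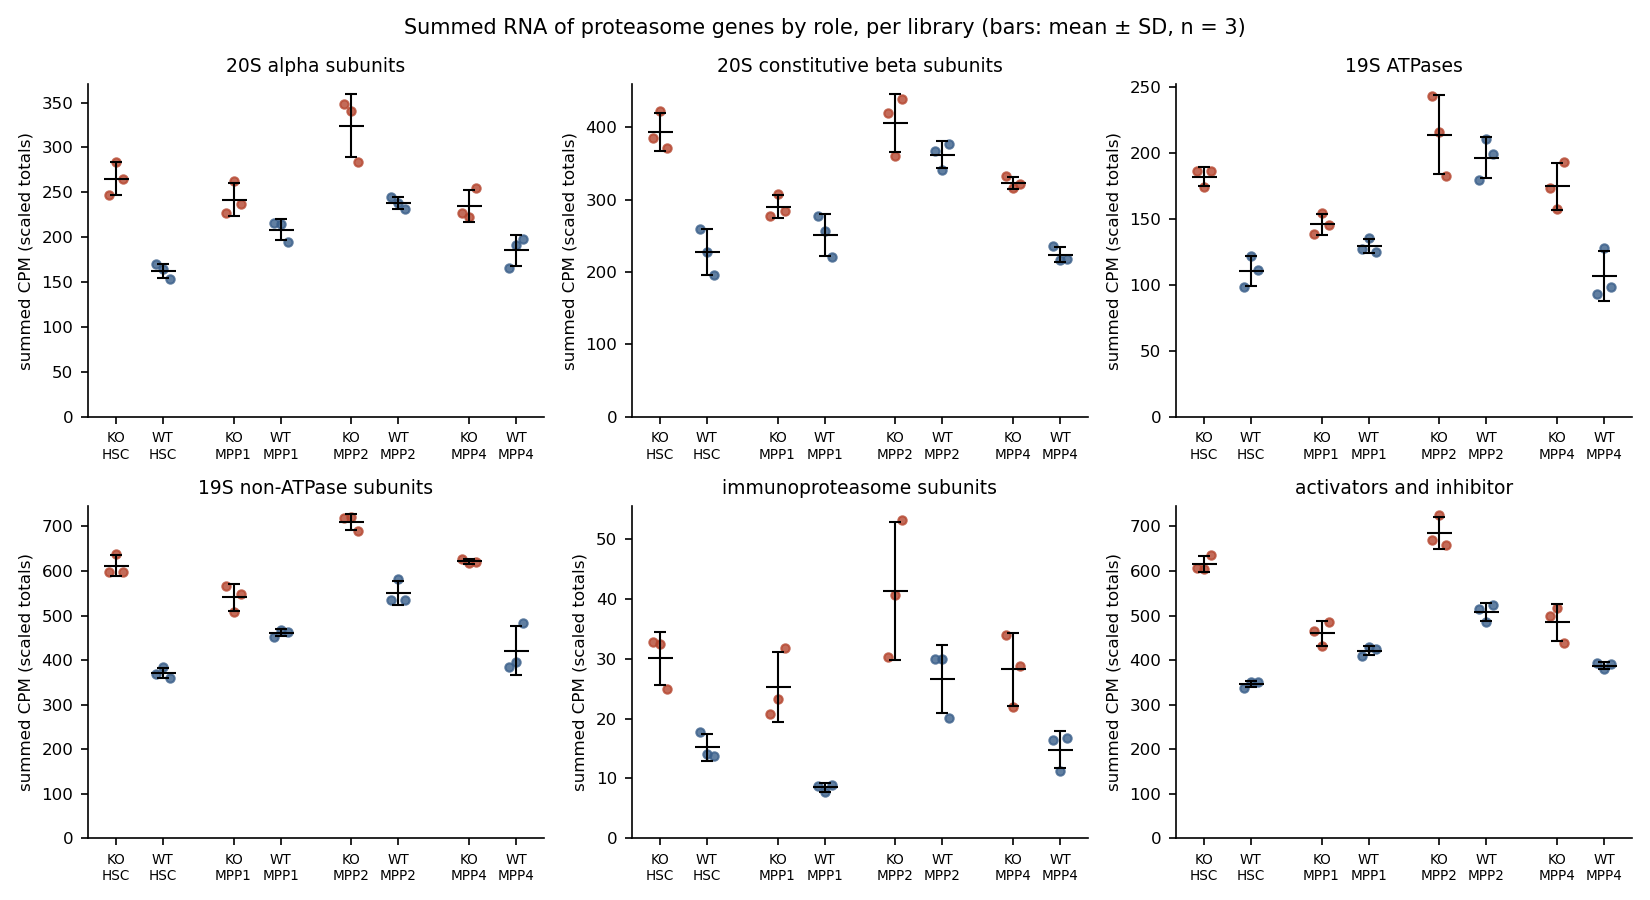
Summed CPM (y axis, scaled totals) of the members of 6 roles in each library, by group (x axis, KO left of WT in each population); points are libraries (KO red, WT blue), bars the mean ± SD of 3. In HSC and in MPP1 every KO library lies above every WT library in all 6 roles, and the gaps of the constitutive roles are narrower in MPP1.

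In HSC calls were spread over the parts of the particle. The counts by role are short, and 43.3% of all genes averaging 20 CPM or more were called higher, so a count near or below that share, as for the beta subunits and ATPases, is not a result about that role. Of the alpha subunits 4 of 8 rose, with Psma7 at a log2 fold change of 1.39 ± 0.41 (SE), Psma4 at 1.13, Psma6 at 1.11 and Psma1 at 1.03. Of the constitutive beta subunits 2 of 7 rose, Psmb2 and Psmb3. Psmb3 rose by 1.25 (adjusted p 0.032) and did not pass without WT HSC replicate 1 or 3 or KO HSC replicate 1 or 3 (adjusted p 0.0552 to 0.164). Of the ATPases, which drive unfolding, 2 of 6 rose: Psmc6 at 0.91 and Psmc5 at 0.99. Psmc5 did not pass without any 1 of 5 libraries, all but WT HSC replicate 2 (adjusted p 0.0513 to 0.231). Of the other cap subunits 7 of 11 rose, among them the ubiquitin receptor Psmd4 at 1.29 and the lid subunit Psmd8 at 1.18. The scaffold subunit Psmd3 rose by 0.86 and did not pass without KO HSC replicate 2 (adjusted p 0.067). The cap chaperone Psmd5 rose by 0.59 and did not pass without WT HSC replicate 1 or 2 or KO HSC replicate 2 (adjusted p 0.104 to 0.193). None of the 3 tested core chaperones passed, and Psmg2 had a log2 fold change of 1.10 with an adjusted p of 0.0573.

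Psme3 and Psmb2 had the smallest p-values among the members in HSC. Psme3 was at 253.3, 268.6 and 266.3 CPM in KO HSC, against 117.5, 120.4 and 112.3 CPM in WT HSC. Each KO library was more than double each WT library, and the log2 fold change was 1.17 ± 0.11 (SE, adjusted p 4.67e-11). Psmb2 was at 181.9, 233.8 and 182 CPM in KO HSC, against 120.5, 106.1 and 68 CPM in WT HSC. Its groups did not overlap, and the log2 fold change was 1.02 ± 0.15 (adjusted p 1.03e-06). Psmd4 was at 62.72, 58.44 and 44.54 CPM in KO HSC, against 25.49, 21.49 and 20.57 CPM in WT HSC. Psmd14 was at 109.1, 88.51 and 101.7 CPM in KO HSC, against 54.86, 68.97 and 65.72 CPM in WT HSC. For both the lowest KO library lay above the highest WT library, with adjusted p of 2.14e-04 and 7.89e-04. After the estimated background was subtracted, 2 of the 21 members were called, Psmb2 (log2 fold change at least 0.54 under every alternative) and Psme3 (at least 0.64). In that run 2 of 46 members were higher, beside 855 of all 18601 genes tested. With the fit restricted to genes of at least 20 CPM, 8 of 32 members were called higher, beside 1819 of all 8522 genes. The 8 were these 2 and Psmd4, Psma6, Psmd8, Psma1, Psma4 and Psmd7. Both counts were near the shares of all genes, so they are not a result about the members. After background subtraction the other HSC calls did not pass (edgeR adjusted p 0.0627 to 0.632). Their estimates were smaller, for example 0.275 against 0.759 for Psmd2 and 1.835 against 1.948 for Psmb8. Whether uneven background made these calls was not tested.

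**Figure D2:**
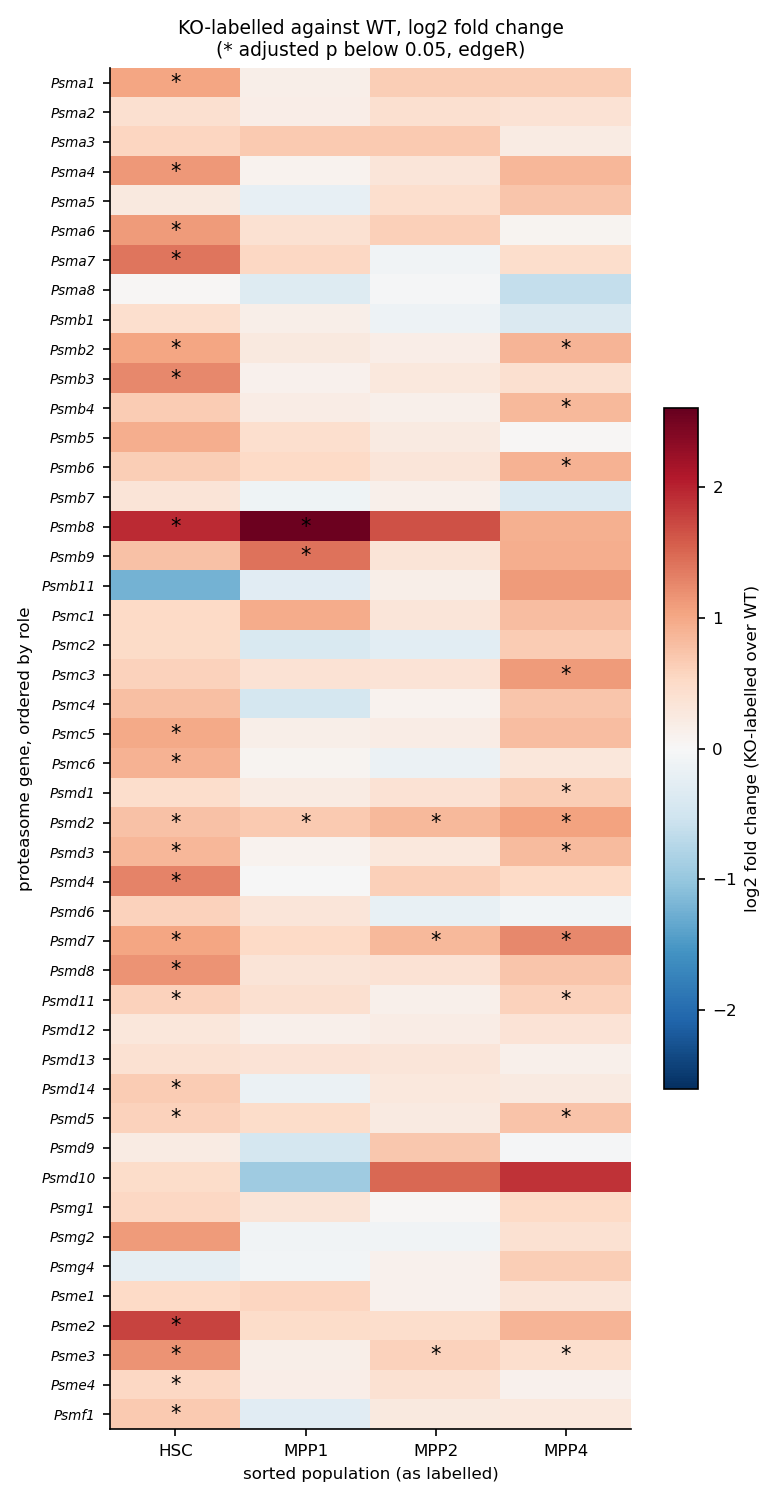
Log2 fold change of KO over WT (colour, red higher in KO) for the 46 tested members (rows, by role) in the 4 populations (columns); a star marks an adjusted p below 0.05. Stars number 21 in HSC and 11 in MPP4-labelled cells, and 3 each in MPP1 and MPP2-labelled cells, all on red.

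In MPP1 the constitutive proteasome differed less between the genotypes than in HSC, while both measured immunoproteasome genes rose. The summed level was 1824 ± 29.5 CPM in KO MPP1 and 1591 ± 45.9 CPM in WT MPP1 (SD, n = 3 each), with every KO library above every WT one. Without TMM scaling, members made up 0.177% ± 0.00379 of the counts in KO MPP1 and 0.173% ± 0.00293 in WT MPP1. In the test, 3 of 46 members rose and 0 fell, where 8.71% of all genes were called higher and 4.90% lower: Psmb8, Psmb9 and Psmd2. Among genes of at least 20 CPM 1 of 32 members (Psmd2, 3.12%) was called higher, against 21.4% of all such genes. The groups did not overlap, with KO higher, for 12 members, against 17.3% of all genes. The median log2 fold change of these 32 members was 0.18, against 0.22 over all such genes. Psmd2, the large scaffold of the cap's base, was at 55.82, 61.14 and 49.69 CPM in KO MPP1, against 29.7, 39.92 and 34.44 CPM in WT MPP1. The groups did not overlap (log2 fold change 0.68 ± 0.22, adjusted p 0.0298), but the call did not pass without WT MPP1 replicate 1 or 3 or KO MPP1 replicate 1 or 2 (adjusted p 0.07 to 0.14). With only genes of at least 20 CPM in the fit, 0 members were higher, and Psmd14 and the inhibitor Psmf1 were called lower at -0.40 and -0.55 (edgeR adjusted p 0.0456 and 0.0222). Of all 8522 genes in that fit, 1001 were called higher and 1582 lower. After background subtraction none of the 3 calls passed, with adjusted p of 0.0524 (Psmb9), 0.0921 (Psmb8) and 0.312 (Psmd2).

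In MPP2-labelled cells Psme3, Psmd2 and Psmd7 rose in KO, and the share of members called was near that of all genes. The summed level was 2515 ± 57.7 CPM in KO and 1993 ± 16 CPM in WT libraries (SD, n = 3 each), the highest of the 4 populations in either genotype. In the test 3 of 46 members rose and 0 fell, where 3.73% of all genes were called higher and 4.17% lower. Among genes of at least 20 CPM the 3 were 9.38% of 32 members, near the 8.33% of all such genes. The groups did not overlap, with KO higher, for 11 members, against 11.4% of all genes. Psme3 was at 291.3, 307.3 and 301.8 CPM in KO, against 203.4, 196.4 and 198.3 CPM in WT. The libraries of each group lay within a narrow band and far from the other (log2 fold change 0.59 ± 0.11, adjusted p 2.6e-04). Psmd2 was at 84.18, 77.3 and 70.47 CPM in KO, against 38.38, 39.74 and 50.69 CPM in WT (log2 fold change 0.85 ± 0.22, adjusted p 0.00805). Without WT replicate 1 or 2 its adjusted p was 0.0589 or 0.0521. Psmd7, the lid partner of the deubiquitinase Psmd14, was at 63.23, 58.62 and 45.73 CPM in KO, against 24.34, 40.02 and 29.01 CPM in WT. It rose by 0.84 (adjusted p 0.0333) and did not pass without WT replicate 1 or 3 or KO replicate 1 or 2 (adjusted p 0.0971 to 0.193).

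In MPP4-labelled cells 11 of 46 members rose in KO and 0 fell, where 11.4% of all genes were called higher and 6.47% lower. The summed level was 2023 ± 25.1 CPM in KO and 1448 ± 87.5 CPM in WT libraries (SD, n = 3 each). All 11 averaged 20 CPM or more, where they were 34.4% of 32 members, against 27.3% of all such genes. KO lay above WT without overlap for 16 members, against 16.3% of all genes. Of the other cap subunits 5 of 11 rose (Psmd1, Psmd2, Psmd3, Psmd7 and Psmd11), and of the constitutive beta subunits 3 of 7 (Psmb2, Psmb4 and Psmb6). Several of these calls did not pass when 1 library was left out. Psmd1 did not pass without any 1 of 5 libraries, all but WT replicate 3 (adjusted p 0.0523 to 0.136). Psmd3 did not without WT replicate 1 or 3 or KO replicate 1 or 3 (0.0659 to 0.113), nor Psmb4 without WT replicate 1 or 2 or KO replicate 1 or 3 (0.0837 to 0.148). Psmd11 did not pass without KO replicate 2 (0.0503), nor did the chaperone Psmd5 without WT replicate 1 (0.107). Psmb2 was at 152.7, 153.1 and 149.4 CPM in KO, against 77.71, 86.49 and 81.65 CPM in WT (log2 fold change 0.89 ± 0.16, adjusted p 4.19e-05). Psmd7 was at 66.62, 58.71 and 52.27 CPM in KO, against 22.12, 22.72 and 29.72 CPM in WT (log2 fold change 1.25 ± 0.26, adjusted p 4.12e-04). The groups of both stood well apart. Psmd2 was at 51.29, 71.29 and 64.95 CPM in KO, against 29.59, 32.84 and 28.01 CPM in WT (log2 fold change 1.05 ± 0.22, adjusted p 4.74e-04). The ATPase Psmc3 was at 35.4, 40.14 and 54.75 CPM in KO, against 16.44, 26.27 and 17.08 CPM in WT. It rose by 1.12 (adjusted p 0.00328) and its exons overlap Slc39a13 on the other strand over 8.2% of their length, so some reads may be from that gene. After background subtraction 3 of 46 members were called higher, Psmb2, Psmd2 and Psmd7, beside 849 of all 18601 genes tested. Scaling with median-of-ratios size factors, a fit of only the 6 libraries compared, and a fit of genes of at least 20 CPM called 4 members higher each. All genes called higher in these fits were 1521 of 21964, 1396 of 18108 and 1003 of 8522, in that order. The fit of genes of at least 20 CPM called the catalytic subunit Psmb7 lower (-0.66, edgeR adjusted p 0.0493), beside 1779 of all 8522 genes.

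**Figure D3:**
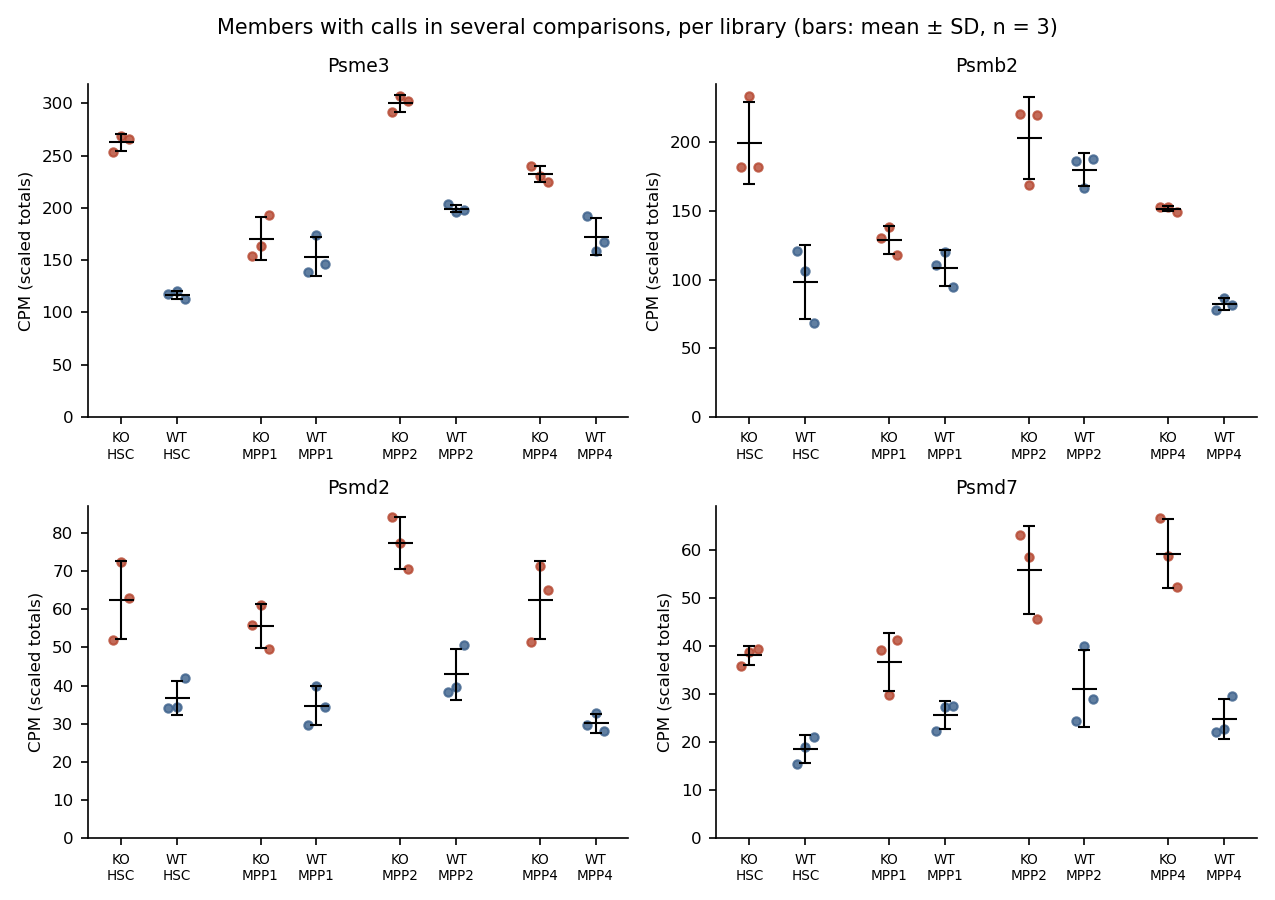
CPM (y axis, scaled totals) of Psme3, Psmb2, Psmd2 and Psmd7 in each library by group (x axis, KO left of WT); points are libraries, bars the mean ± SD of 3. KO libraries of Psmd2 lie above all WT libraries of their population in each of the 4, and those of Psme3 in all but MPP1.

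At an unadjusted p below 0.05, 0 members were lower in KO in any of the 4 populations by edgeR, and DESeq2 also called 0 lower. Across the 4 populations, 20 of the 46 members were called in none, 18 in 1, 5 in 2, 2 in 3 (Psmd7 and Psme3) and 1 in all 4 (Psmd2). The estimate was above 0 in all 4 for 29 members. How many of all genes would give such tallies was not tested. The median over all genes of at least 20 CPM was itself above 0 in every population, lowest in MPP2-labelled cells (0.07) and highest in HSC (0.44). The tallies are therefore not read as a result about the members. In the average of the 4 effects, 28 members rose and 0 fell, where 22.9% of all genes were called higher and 30.3% lower. Among genes of at least 20 CPM these were 24 of 32 members (75%), against 51.2% of all such genes. Averages that passed under each alternative run testing the gene were those of Psmd7 (0.91 ± 0.13), Psmd2 (0.83), Psmb8 (1.77), Psmb9 (0.86), Psme3 (0.59) and Psmb2 (0.58). Psmb8 and Psmb9 were not tested at a minimum of 20 CPM. The average of Psmf1 was 0.23 (adjusted p 0.0349). It did not pass without any 1 of 10 libraries (adjusted p 0.0503 to 0.101) and turned to -0.0060 among genes of at least 20 CPM and to -0.066 after background subtraction.

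The genotype effect differed between populations for 4 of 46 members (edgeR interaction test), where 17.7% of all genes were called. All 4 averaged 20 CPM or more, where they were 12.5% of 32 members, against 34.5% of all such genes. Psme3 (adjusted p 4.85e-05) had a log2 fold change of 1.17 in HSC, against 0.16 in MPP1, 0.59 in the MPP2-labelled and 0.43 in the MPP4-labelled cells. Psmb2 (adjusted p 0.00345) had 1.02, 0.25, 0.17 and 0.89 in the same order. Its call did not pass after background subtraction (adjusted p 0.151). Psmf1, the inhibitor PI31, had 92.69, 93.57 and 103.3 CPM in KO HSC, against 54.58, 57.56 and 67.43 CPM in WT HSC. In MPP1 it had 71.87, 62.87 and 73.66 CPM in KO, against 94.38, 78.41 and 83.71 CPM in WT. KO lay above WT in HSC (0.69) and below WT in MPP1 (-0.30, adjusted p 0.329), with an interaction adjusted p of 0.0398. Psmd14 had 0.66 in HSC and -0.15 in MPP1 (interaction adjusted p 0.0462). Psmd4 came next and did not pass (adjusted p 0.0774).

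Both measured immunoproteasome genes stood at low levels in all groups, and the mean of their sum was higher in KO in each population. The sum of Psmb8 and Psmb9 was 30.1 ± 4.41 CPM in KO HSC and 15.2 ± 2.23 CPM in WT HSC. In MPP1 it was 25.3 ± 5.84 CPM in KO and 8.49 ± 0.691 CPM in WT. In MPP2-labelled cells it was 41.4 ± 11.5 CPM in KO and 26.7 ± 5.70 CPM in WT, and in MPP4-labelled cells 28.2 ± 6.09 CPM in KO and 14.8 ± 3.10 CPM in WT (SD, n = 3 in each group). Psmb10 was at 0 in every library, although background alone would give 1.20 counts in KO HSC to 5.32 in WT MPP4-labelled cells, summed over the 3 libraries of a group. A count of 0 is therefore not read as a bound on its level, and whether its reads were counted was not tested.

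Psmb9, the substitute for Psmb6, was at 18.05, 19.81 and 23.97 CPM in KO MPP1, against 7.644, 7.129 and 8.399 CPM in WT MPP1. Every KO library was more than double every WT library, and the log2 fold change was 1.41 ± 0.37 (adjusted p 0.00656). Of the alternatives that tested Psmb9, background subtraction alone ended this call (adjusted p 0.0524). At a minimum of 20 CPM the gene was not tested. In KO HSC the gene was at 24.04, 27.02 and 16.43 CPM, against 16.62, 11.67 and 11.43 CPM in WT HSC, and the groups overlapped (adjusted p 0.0826). In MPP2-labelled cells it was at 19.4, 28.66 and 37.48 CPM in KO, against 25.27, 25.63 and 16.9 CPM in WT. In MPP4-labelled cells it was at 24.25, 18.27 and 23.2 CPM in KO, against 10.46, 10.95 and 12.98 CPM in WT. The groups of the last did not overlap, yet the test did not pass (adjusted p 0.0677). Psmb9 shares 5.8% of its exon bases with Tap1 on the other strand, and the strand setting of the counts is not given in the sources used here.

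Psmb8, the substitute for Psmb5, rested on few reads and shares 14.7% of its exon bases with Gm20496 on the other strand. It had 25, 16 and 27 counts in KO HSC, against 4, 9 and 8 in WT HSC. In MPP1 it had 8, 12 and 27 counts in KO, against 4, 2 and 2 in WT. KO lay above WT in both, with log2 fold changes of 1.95 ± 0.77 (adjusted p 0.037) and 2.55 ± 0.84 (adjusted p 0.0337). Background would give 30.4% of the counts in WT HSC and 82.4% of the 8 counts in WT MPP1. The HSC call did not pass without any 1 of 5 libraries, all but KO HSC replicate 2 (adjusted p 0.0639 to 0.13). The MPP1 call did not pass without WT MPP1 replicate 1, 2 or 3 or KO MPP1 replicate 3 (adjusted p 0.056 to 0.191). In MPP2-labelled cells it had 28, 37 and 42 counts in KO, against 15, 15 and 10 in WT (adjusted p 0.18). In MPP4-labelled cells it had 35, 12 and 18 counts in KO, against 20, 1 and 11 in WT, and these overlapped. Over the 4 populations the average log2 fold change was 1.77 ± 0.38 (adjusted p 2.02e-04). It passed under each alternative run that tested Psmb8, which leaves out the minimum of 20 CPM.

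**Figure D4:**
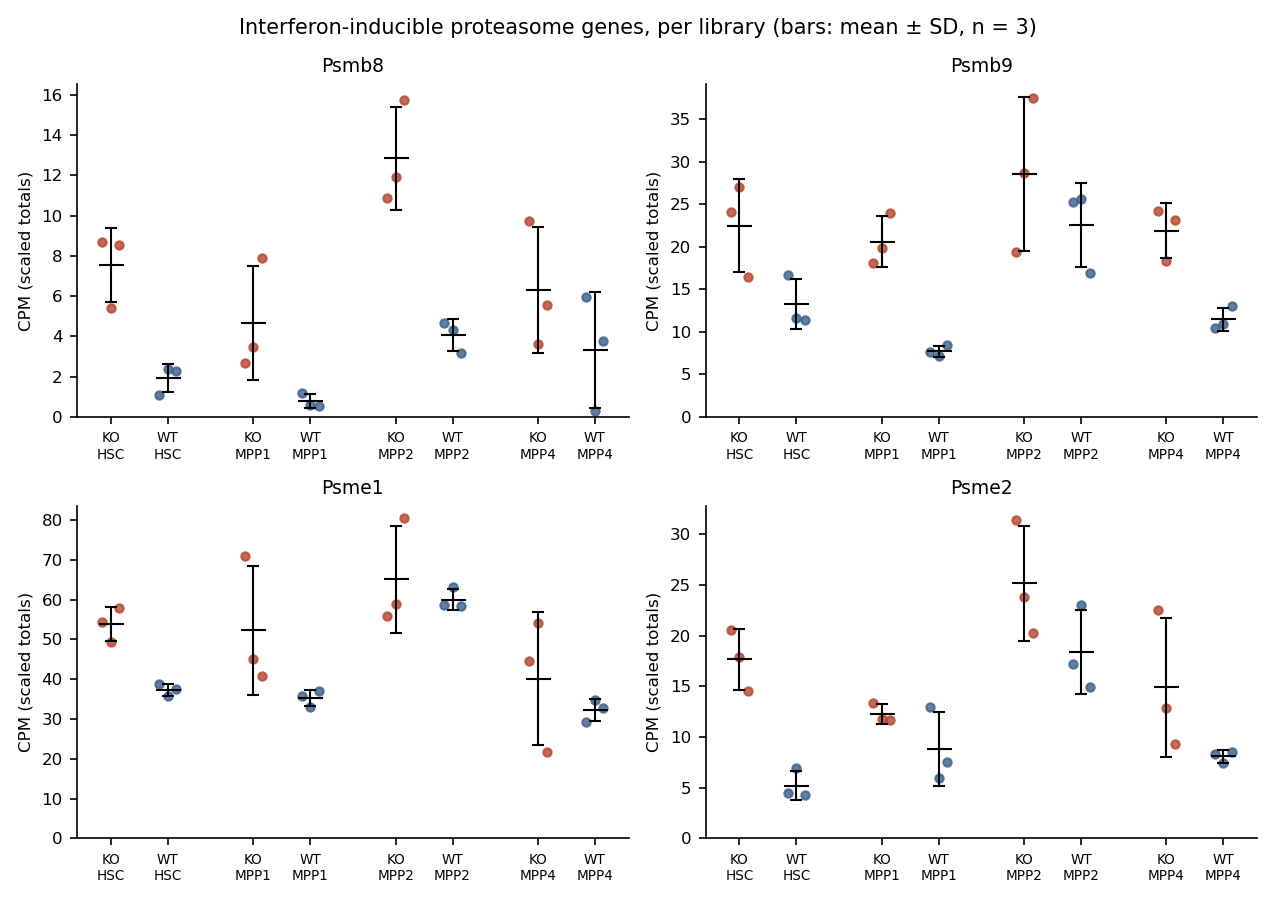
CPM (y axis, scaled totals) of Psmb8, Psmb9, Psme1 and Psme2 in each library by group (x axis, KO left of WT); points are libraries, bars the mean ± SD of 3. By group mean, Psmb8 (0.769 CPM) and Psmb9 (7.72 CPM) are lowest in WT MPP1 and Psme2 (5.205 CPM) in WT HSC; single libraries of other WT groups reach as low for Psmb8 and Psme2.

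The constitutive counterparts did not pass in the populations where their substitutes rose. Psmb6, the caspase-like subunit, was at 40.78, 55.12 and 32.74 CPM in KO MPP1, against 35.58, 29.08 and 24.92 CPM in WT MPP1 (log2 fold change 0.52, adjusted p 0.239). In HSC it was at 59.93, 38.17 and 34.12 CPM in KO, against 36.57, 26 and 22 CPM in WT (adjusted p 0.061). It passed in MPP4-labelled cells, at 61.32, 29.65 and 60.31 CPM in KO and 27.8, 22.99 and 30.41 CPM in WT, where the groups overlapped. That call (0.90, adjusted p 0.0206) did not pass without WT replicate 2 or KO replicate 1 or 3 (adjusted p 0.0938 to 0.107). Psmb7, the trypsin-like subunit, was at 26.74, 50.52 and 48.23 CPM in KO MPP1, against 51.16, 36.21 and 48.44 CPM in WT MPP1. Its level overlapped between the genotypes in all 4 populations. The ratio of Psmb9 to Psmb6 counts was 0.443, 0.359 and 0.732 in KO MPP1, against 0.215, 0.245 and 0.337 in WT MPP1. In HSC the ratio was 0.401 to 0.708 in KO and 0.449 to 0.519 in WT, and the ranges overlapped there as in the MPP2-labelled and MPP4-labelled cells. Psmb5 had 7, 5 and 9 counts in KO HSC, against 11, 1 and 1 in WT HSC, too few for a ratio with Psmb8 to be read.

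The interferon-inducible activator PA28, made of Psme1 and Psme2, opens the ends of the core. Psme2 was at 20.56, 17.9 and 14.53 CPM in KO HSC, against 4.433, 6.897 and 4.286 CPM in WT HSC. The lowest KO library was more than double the highest WT one (log2 fold change 1.75 ± 0.45, adjusted p 0.00166), and background subtraction alone ended the call (adjusted p 0.08). At a minimum of 20 CPM Psme2 was not tested. In MPP1 it was at 13.37, 11.77 and 11.69 CPM in KO, against 12.94, 5.988 and 7.559 CPM in WT, and the test did not pass. Psme1 was at 54.36, 49.32 and 57.81 CPM in KO HSC, against 38.79, 35.81 and 37.43 CPM in WT HSC. Its groups did not overlap in HSC or MPP1, yet neither comparison passed (adjusted p 0.088 and 0.146). In MPP2-labelled cells it was at 55.86, 58.94 and 80.59 CPM in KO, against 58.66, 63.06 and 58.34 CPM in WT, which overlapped. The activator Psme4 (PA200) rose by 0.55 in HSC (adjusted p 0.0011), as did Psmf1 by 0.69 (adjusted p 0.00309). Neither was called among genes of at least 20 CPM or after background subtraction.

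Marker lists of several cell types moved with genotype beside the proteasome genes. The 10 stem cell and progenitor markers summed to 9241 to 9530 CPM in KO HSC and 4727 to 4839 CPM in WT HSC, and to 6990 to 7340 CPM in KO MPP1 and 4977 to 5175 CPM in WT MPP1. They were also higher in KO in MPP4-labelled cells (2808 to 2885 CPM in KO and 1618 to 1775 CPM in WT) and lower in MPP2-labelled cells (3963 to 4054 CPM in KO and 4148 to 4272 CPM in WT). The 6 stromal and endothelial markers summed to 295.6 to 364.6 CPM in KO and 200.5 to 244.8 CPM in WT MPP4-labelled cells, and to 743 to 873.8 CPM in KO and 671.7 to 722.2 CPM in WT MPP2-labelled cells. Pecam1 was the largest part of these sums, at 222.6 to 293.2 CPM in KO and 91.22 to 121.5 CPM in WT MPP4-labelled cells. In MPP2-labelled cells it was at 665.4 to 804.2 CPM in KO and 508 to 575.3 CPM in WT. The other listed genes had lower means in KO in both populations, except Lepr in MPP2-labelled cells. In MPP1 the stromal and endothelial sum overlapped, and in HSC it was 139.6 to 227.2 CPM in KO and 225.4 to 259.6 CPM in WT, which overlapped as well. Mature immune cells carry immunoproteasome. The 4 dendritic and macrophage markers summed to 29.05 to 47.04 CPM in KO HSC and 72.59 to 92.58 CPM in WT HSC. The 7 lymphocyte markers summed to 13.17 to 24.96 CPM in KO HSC and 23.61 to 32.97 CPM in WT HSC, and Ms4a1 was at 0 in all libraries. The 6 mature myeloid markers summed to 23.38 to 45.27 CPM in KO HSC and 41.91 to 43.15 CPM in WT HSC, which overlapped, as did their main contributor Lyz2 (18.64 to 39.19 CPM in KO HSC and 17.43 to 34.63 CPM in WT HSC). Among the listed markers of mature cells, S100a8, S100a9, C1qa, Cd79a and Ms4a1 were at 0 in all KO HSC libraries. S100a8 and C1qa also reached 0 in WT HSC. Other listed markers were present in KO HSC, among them Cd74 (26.69 to 37.28 CPM) and Cd4 (11.15 to 24.33 CPM). In MPP1 the dendritic and macrophage sum was 24.11 to 45.6 CPM in KO and 67.92 to 80.69 CPM in WT. The 5 erythroid markers moved with genotype in the same way, at 48.81 to 81.23 CPM in KO MPP1 and 511 to 536.4 CPM in WT MPP1. In HSC they summed to 62.83 to 80.14 CPM in KO and 120.3 to 132.9 CPM in WT. Their part in the result was not tested. In sorted bulk samples a changed cell mixture and changed RNA per cell cannot be told apart.

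Among WT cells, the summed level of the proteasome genes was highest in MPP2-labelled cells, though not in every role. The summed level was 1591 ± 45.9 CPM in WT MPP1, 1993 ± 16 CPM in MPP2-labelled and 1448 ± 87.5 CPM in MPP4-labelled cells, against 1330 ± 34.8 CPM in WT HSC (SD, n = 3 each). The base chaperones did not follow the total: they summed to 70.6 ± 5.41 CPM in WT MPP1, 56.7 ± 4.77 CPM in MPP2-labelled and 69.3 ± 19.6 CPM in MPP4-labelled cells, against 60.2 ± 4.16 CPM in WT HSC. All these comparisons, and KO against WT in HSC, share the WT HSC libraries. MPP2-labelled against HSC had 10 of 46 members higher and 0 lower, where 11.7% of all genes were called higher and 7.37% lower. Among genes of at least 20 CPM these were 8 of 32 members (25%), against 27.5% of all such genes. Psme3 was at 203.4, 196.4 and 198.3 CPM in WT MPP2-labelled cells, against 117.5, 120.4 and 112.3 CPM in WT HSC (log2 fold change 0.77 ± 0.11, adjusted p 1.19e-06). Psmd14 was at 119.2, 133.3 and 106.8 CPM, against 54.86, 68.97 and 65.72 CPM in WT HSC (0.92 ± 0.16, adjusted p 1.28e-05). Psmb2 was at 186, 166.7 and 187.8 CPM in the MPP2-labelled cells, against 120.5, 106.1 and 68 CPM in WT HSC. The ATPase Psmc6 was at 46.18, 63.35 and 55.79 CPM, against 24.38, 26.26 and 21.43 CPM in WT HSC (1.20 ± 0.25, adjusted p 3.31e-04). The groups of all 4 genes stood apart, and these calls passed under every alternative run, as did Psma1 (1.22). Psme2 (1.81) passed under every run that tested it, but was not tested at a minimum of 20 CPM.

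In WT MPP1 against WT HSC, 2 members rose and 0 fell, where 1.97% of all genes were called higher and 1.83% lower. In WT MPP4-labelled cells against WT HSC there were also 2 higher and 0 lower, where 2.91% of all genes were called higher and 7.43% lower. In both they were Psmd14 (0.66 in each) and Psme3 (0.39 in MPP1 and 0.56 in MPP4-labelled cells). Both averaged 20 CPM or more, where they were 6.25% of 32 members, against 4.60% of all such genes in MPP1 and 6.31% in MPP4-labelled cells. Psmd14 was at 91.44, 102.4 and 105.8 CPM in WT MPP1 and 92.65, 88.4 and 119.6 CPM in MPP4-labelled cells, above each WT HSC library. It did not pass in MPP1 without WT HSC replicate 1 (adjusted p 0.0682), nor in MPP4-labelled cells without WT MPP4 replicate 3 (adjusted p 0.0514). Psme3 in MPP1 (adjusted p 0.0412) did not pass without any 1 of 5 libraries, all but WT MPP1 replicate 1 (adjusted p 0.0796 to 0.406). At an unadjusted p below 0.05, 1 member was lower in each WT comparison with WT HSC: Psmb9 in MPP1, Psma8 in MPP2-labelled and Psmc3 in MPP4-labelled cells. DESeq2 called Psma8 lower there and 0 members lower in the other two. Psmb8 and Psmb9 had negative estimates in MPP1, -1.29 and -0.77, and neither passed (adjusted p 0.687 and 0.405).

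**Figure D5:**
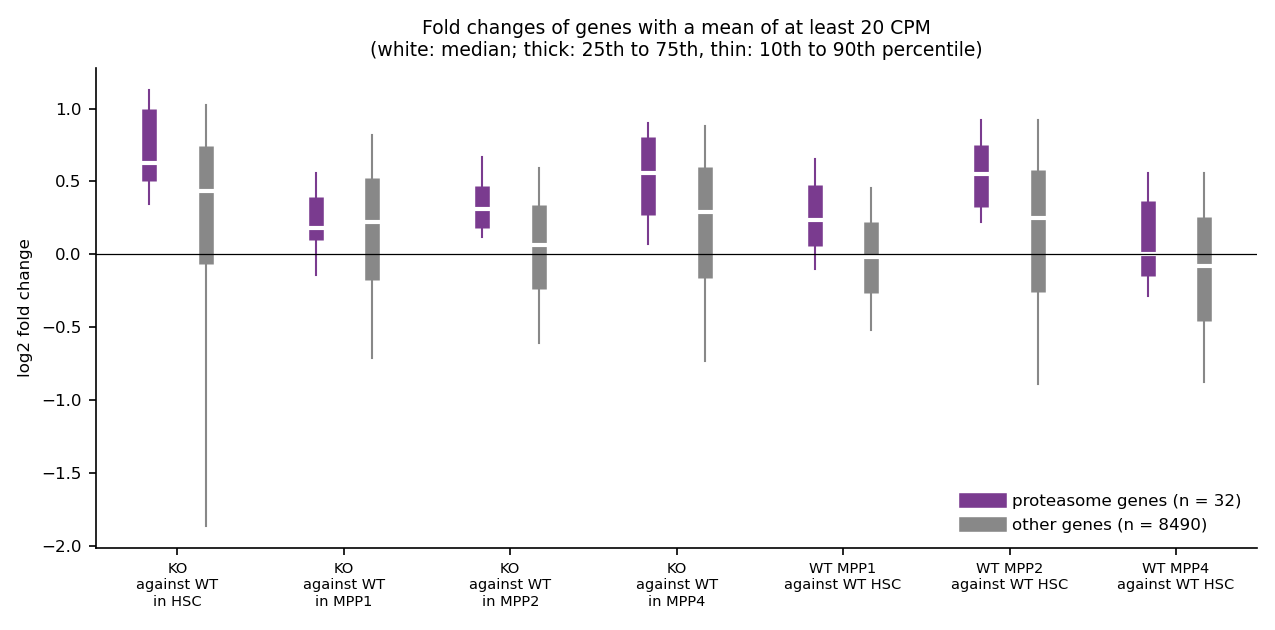
Log2 fold changes (y axis) of the 32 members and of the 8490 other genes averaging 20 CPM or more in 7 comparisons (x axis); the white mark is the median, thick bars span the 25th to 75th and thin bars the 10th to 90th percentile. The medians in KO against WT HSC are 0.62 for members and 0.43 for the other genes, and in MPP1 0.18 and 0.22.

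Genes that work with the proteasome are read against the same shares of all genes called higher: in HSC 18.3% of all genes and 43.3% of those averaging 20 CPM or more, in MPP1 8.71% and 21.4%, in MPP2-labelled cells 3.73% and 8.33%, and in MPP4-labelled cells 11.4% and 27.3%. These lists are too short for a count near those shares to be read as a result. Of 9 further proteasome genes, 4 rose and 0 fell in HSC, led by Ecpas, a proteasome-associated adaptor (1.04), and Adrm1, a ubiquitin receptor of the cap (1.28, adjusted p 0.0941 after background subtraction). Ecpas alone rose in MPP1 (0.31) and in MPP4-labelled cells (0.39). Its MPP1 call did not pass when any 1 of the 6 libraries was left out (adjusted p 0.0632 to 0.138), and the other not without KO MPP4 replicate 2 (0.0568). In MPP2-labelled cells the maturation factor Pomp rose (0.73), while Zfand5, a proteasome-binding zinc finger protein, fell by 1.25 (adjusted p 4.68e-04). Pomp did not pass when any 1 of the 6 libraries was left out (adjusted p 0.0601 to 0.194). Of 11 tested ubiquitin and shuttle genes, 7 rose in HSC and 3 in MPP1, 4 in MPP4-labelled and 2 in MPP2-labelled cells, and 0 fell in any. Uba1, the main ubiquitin-activating enzyme, was called in all 4 at 1.08, 0.55, 0.65 and 0.75, and background subtraction ended the MPP1 call alone (adjusted p 0.111). The shuttle Rad23b was at 1.08 in HSC and 0.80 in MPP4-labelled cells, where both calls passed under every alternative run.

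Of 5 regulators of proteasome genes, 2 each rose in HSC, MPP1 and MPP4-labelled cells and 0 in MPP2-labelled cells. Nfe2l1, which encodes the factor Nrf1, was at 122, 144.6 and 92.25 CPM in KO HSC, against 70.93, 87.8 and 76.86 CPM in WT HSC (0.61 ± 0.19, adjusted p 0.00825). That call did not pass at a minimum of 20 CPM (adjusted p 0.233), after background subtraction (0.814) or without KO HSC replicate 2 (0.0822). Of 7 tested genes of antigen processing and interferon regulation, 4 rose in HSC and 5 in MPP1, and 3 each in the MPP2-labelled and MPP4-labelled cells, and 0 fell. Tap2, a subunit of the peptide transporter, was at 226.5, 205.7 and 163.6 CPM in KO HSC, against 74.53, 114.6 and 52.57 CPM in WT HSC. It was at 181.8, 171.4 and 223.3 CPM in KO MPP1, against 68.8, 84.97 and 77.83 CPM in WT MPP1. The groups stood apart in both (log2 fold changes 1.30 ± 0.17 and 1.32 ± 0.17), and the calls passed under each alternative run.

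Over the 8 group means, the 5 non-members whose log2 CPM was most like the mean of Psmb8 and Psmb9 were Exosc7 (Pearson r 0.987), Flna (0.985), Ints1 (0.984), Baz1b (0.982) and Ubald1 (0.981). These are picked as the highest of many correlations over 8 points that share libraries and scaling.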

How the data were processed

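RNA was measured in 24 libraries, 3 in each of 8 groups. The authors deposited raw read counts, 1 row per gene. The submitters' processing notes name mm39, SAMtools 1.12 and DESeq2 without saying what each did. The aligner, counter and strand setting are not given in the sources used here. Columns were matched to samples by their description.

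Of 56748 genes, 21964 passed edgeR's filterByExpr. With edgeR 4.0.16 (R 4.3.3), all 24 libraries entered 1 quasi-likelihood fit of 8 group means (TMM scaling, 16 residual df, common BCV 0.393), with Benjamini-Hochberg adjustment over all genes in each of 9 comparisons and calls at an adjusted p below 0.05. SE was taken as the size of the log2 fold change divided by sqrt(F). Background is the count of 2002 smell receptor genes per kb of span (GRCm38 annotation, which also gave exon lengths and overlaps). Subtracting it left 18601 genes tested. Alternatives were size factors, no filter, a minimum of 20 CPM, DESeq2 1.42.0, only the libraries compared, a replicate block, background subtraction and leaving out each library. The code was tested on simulated data. The members and lists were chosen with earlier results of these data known. Any member could be named. Values per library were given for the immunoproteasome genes, their counterparts, Psme1, Psme2 and the 4 called members with the smallest p in each comparison.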

Additional observations from a re-analysis of the deposited data

Results flagged for a closer look

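The difference between KO and WT itself differed between the 4 populations for 4 members, by edgeR's interaction test with adjustment over all genes tested. Psme3 had an adjusted p of 4.85e-05, with its largest effect in HSC (log2 fold change 1.17) and its smallest in MPP1 (0.16). Psmb2 had 0.00345, with effects of 1.02 in HSC and 0.17 in MPP2-labelled cells. Psmf1 had 0.0398 and Psmd14 had 0.0462. For both, the estimate was positive in HSC and negative in MPP1 (-0.30 and -0.15). Psme3 passed under each alternative run. Psmf1 did not pass when any 1 of 12 libraries was left out (adjusted p 0.0507 to 0.114), and Psmd14 did not for any 1 of 13 (0.0544 to 0.131).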

How the results depend on the processing

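Of 84 called values of single members, 20 passed under every alternative run that tested them, 60 were lost after background subtraction and 44 were lost or not tested at a minimum of 20 CPM. Members called higher in KO at that minimum numbered 8 in HSC, 0 in MPP1, 4 in MPP4-labelled cells and 11 in the average, with 2 lower in MPP1 and 1 lower in MPP4-labelled cells; against WT HSC they numbered 4 in WT MPP1 and 6 in MPP2-labelled cells. After subtraction they numbered 2 in HSC, 0 in MPP1, 3 in MPP4-labelled cells, 6 in the average, 1 in the interaction, and 6 in WT MPP2-labelled cells against WT HSC. Of all 8522 genes at that minimum, 1819 were called higher in KO in HSC, 1001 in MPP1, 1003 in MPP4-labelled cells and 2248 in the average. Against WT HSC, 552 were higher in WT MPP1 and 1415 in MPP2-labelled cells. Of all 18601 genes after subtraction, 855, 605, 849 and 1811 were higher in KO in the same order, and 1219 in WT MPP2-labelled cells against WT HSC. Size factors gave 4 members in MPP4-labelled cells and 2 in the interaction. They put the HSC median of all genes at -0.46, against -0.31 with TMM. The HSC gap between the medians of members and all genes was 0.96, and was 0.186 at a minimum of 20 CPM, 0.485 after subtraction and 0.535 with only the libraries compared. No filter gave 1 in KO MPP1 and 1 in WT MPP1 against HSC. Only the libraries compared gave 4 in MPP4-labelled cells and 1 in WT MPP1. DESeq2 gave 5 higher in WT MPP1, and 1 lower (Psma8) in the average and in WT MPP2-labelled cells. Reversed estimates were those of Psme1 in MPP2-labelled cells (-0.029 after subtraction, and -0.065 to 0.21 when 1 library was left out, negative without KO replicate 3), Psme1 in MPP4-labelled cells (-0.040 after subtraction) and Psmf1 in the average (-0.0060 at 20 CPM, -0.066 after subtraction). The cause was not tested.

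Leaving out 1 library gave 18 to 20 members higher in HSC, 1 to 3 in MPP1 (1 without WT MPP1 replicate 1 or 3), 1 to 3 in MPP2-labelled cells (1 without WT replicate 1), 7 to 11 in MPP4-labelled cells (7 without WT replicate 1), 26 to 30 in the average and 2 to 4 in the interaction. Against WT HSC it gave 0 to 2 in MPP1, 7 to 10 in MPP2-labelled and 1 to 2 higher and 0 to 1 lower in MPP4-labelled cells. An average over HSC and MPP1 only, chosen after seeing the data, changed no count by over 1.5 times.

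Same-numbered KO and WT libraries of a population correlated at -0.0048 to 0.0163 in their deviations from the group means, over 0.1 in 0 of 12 pairs. These values show no sign of pairing between the genotypes but cannot exclude it. Same-numbered libraries of different populations were not compared, so pairing across populations was not tested. With a replicate block, members higher numbered 22 in HSC and 3 in MPP1, and 4 and 11 in MPP2-labelled and MPP4-labelled cells, and of the 84 called values 1 was lost, the interaction of Psmd14 (adjusted p 0.0565). Counts under about 50 in a library, as for Psmb8, Psmb5 and Psmb10, limit what this depth can show.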
